A study of Mus musculus with 2 samples.

Results

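Genes of retinoic acid handling are described here, 9 of the 19626 in the count table: Aldh1a2, Aldh1a3, Dhrs3, Crabp1, Crabp2, Rarb, Rarg, Cyp26a1 and Cyp26b1. They were chosen by symbol, with earlier results of the same counts in view, so their levels and differences are given as descriptions. Cells of the mouse incisor were profiled by 10x Genomics 3' single-cell RNA sequencing, with 1 library from a control mouse and 1 from a Memo1;K14CRE mouse, both 20 days old. The K14 promoter that drives Cre is active in epithelium, which includes the ameloblast lineage, the cells that make enamel. Epithelium and mesenchyme around the cervical loop, the growing end of the incisor, were dissociated together, and the depositors had numbered the clusters of all cells and, separately, of the ameloblast lineage.

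Retinoic acid is made from vitamin A inside cells: retinol is oxidised to retinal, and the retinaldehyde dehydrogenases of the Aldh1a family oxidise retinal to retinoic acid, which cannot be turned back. Dhrs3 works against this route by reducing retinal to retinol, the Crabp proteins bind retinoic acid in the cytoplasm, and the nuclear receptors of the Rar family switch target genes on when retinoic acid binds them. Cytochrome P450 enzymes of the Cyp26 family break retinoic acid down, and in many tissues the cells that make it and the cells that clear it lie side by side. Excess or lack of vitamin A has long been known to disturb tooth and enamel formation.

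The control library held 9708 cells with 79518656 molecule counts (UMIs) and the mutant library 13820 cells with 120862385, of which 2981 and 2303 cells belonged to the lineage. Levels are given as CPM, the gene's counts divided by all counts of the cluster in that library on the usual per-million scale, and all intervals are 95% intervals that cover counting error only. With 1 mouse per genotype there is no test between genotypes, and "higher" and "lower" describe these 2 libraries. Memo1 itself stood at 20.3 CPM in the lineage of the control and 17.7 CPM in that of the mutant (ratio 0.872, interval 0.771 to 0.987), and since the removed part of the gene is not given in the sources used here, these 3' counts do not check the deletion. A gene was measured in a cluster with at least 20 counts over both libraries and a mean of at least 10 CPM, and called with at least a 2-fold difference whose interval excluded 1. Among all measured values, 3.82% in the lineage clusters were called higher in the mutant and 2.54% lower, and 11 and 1 of 41 member values were. In the clusters outside the lineage the shares were 2.4% and 1.38%, beside 7 and 0 of 87 member values, and over the whole lineage 0.992% and 1.31%, beside 2 and 0 of 6. The members were chosen knowing such differences, so nothing is read from these shares.

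The numbers of the lineage clusters and of the all-cell clusters are separate series. Cluster names follow marker genes, and "like" marks that they are not the depositors' names. Within the lineage, cluster 3 was secretory ameloblast-like, cluster 4 preameloblast-like with cycling and haemoglobin genes, cluster 5 stratum intermedium- or papillary layer-like, and cluster 7 maturation ameloblast-like. Clusters 0, 1, 2 and 6 of the lineage were left unnamed and are known by their leading genes: Pmch and Gpx3 in cluster 0, Tagln, H19 and Crabp2 in cluster 1, Pi15 and Slc12a2 in cluster 2, and Dspp and Fxyd4 in cluster 6. Of the cells of lineage cluster 1, 94.6% lay in all-cell cluster 12, which was outer enamel epithelium- or stellate reticulum-like. In lineage cluster 6, 61.8% of the cells lay in all-cell cluster 25, where Cyp26a1 was itself a leading gene, and 37.9% in the secretory ameloblast-like all-cell cluster 14. Compared with the other lineage clusters, lineage cluster 0 matched the marker lists of macrophages (7 of 7 markers) and erythroid cells (4 of 4) and that of no epithelial type. Of its cells, 96.9% lay in all-cell cluster 2, which matched the list of dental epithelium in general (7 of 7 markers). Lineage cluster 0 was shallow, with median depths of 1092 and 898 UMIs in control and mutant cells. Of its 10 leading genes 1, Lyz2, is in the macrophage and erythroid lists. It carries neither of these 2 names here. Lineage cluster 8 held 91 mutant cells and 0 control cells, and 100% of them lay in all-cell cluster 12, as did most of lineage cluster 1. The ratios given for lineage cluster 1 leave these 91 cells out, and the effect of that was not tested.

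Cyp26a1 and Rarb are the members with the best-known response to retinoic acid, and their start regions hold the kind of site that retinoic acid receptors bind, so these sequences are shown. The upstream region of Cyp26a1 (RefSeq, GRCm38.p6, chr19:37697558-37697797, plus strand) is printed up to the base before the first annotated exon, with both half-sites of the repeat in capitals, which here read on the opposite strand:
Cyp26a1 upstream region: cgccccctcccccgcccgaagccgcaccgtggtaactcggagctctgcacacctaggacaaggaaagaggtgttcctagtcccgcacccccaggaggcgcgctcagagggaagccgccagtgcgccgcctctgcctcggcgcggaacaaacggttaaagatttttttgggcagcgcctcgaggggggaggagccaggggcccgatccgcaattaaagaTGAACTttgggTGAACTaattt
To set the 2 sites side by side, each is given on the strand on which it reads as a direct repeat, with 6 bases on each side and the half-sites in capitals:
Cyp26a1 site: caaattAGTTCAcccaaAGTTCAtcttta
Rarb site: gggaagGGTTCAccgaaAGTTCActcgca

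The Cyp26a1 repeat covered chr19:37697776-37697792, 32 to 16 bases before the RefSeq start. The Rarb repeat covered chr14:16575513-16575529 on the minus strand, 53 to 37 bases before its RefSeq start, and GENCODE M21 places it inside the first exon of some Rarb transcripts. The search was for the half-site AGGTCA, or its variants with letters GGGTCA, with AGTTCA and with GGTTCA, in any pair with 5 bases between them on either strand, in windows from 250 bases before to 50 after each start. Such a repeat was in 32 of 32851 windows (0.0974%). Windows were found for 7 of the 9 members, and Cyp26a1 and Rarb were the members with a repeat. With 1 or 2 bases between the half-sites, 0.222% and 0.268% of windows held a repeat and 0 member windows did. A match of letters is not evidence of binding in these cells.

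Aldh1a2 and Aldh1a3 make retinoic acid, and their counts were spread differently over the clusters. Aldh1a2 (chr9:71215789-71296243) lay mostly in all-cell cluster 7, a fibroblast-like mesenchymal cluster led by Sfrp2, which held 14 of its 21 control counts and 581 of its 671 mutant counts. Aldh1a3 (chr7:66390890-66427517) had 11053 control and 19806 mutant counts, spread over mesenchyme and lineage, with 24.6% and 30.1% of them in the lineage. In erythroid cluster 18, taken as the background because red cells should lack both genes, Aldh1a3 stood at 12.8 and 15.6 CPM in 8.88% and 8.72% of cells, at median depths of 10660 and 11225 UMIs. Aldh1a2 had 0 control counts and 1 mutant count there. In all-cell cluster 7, 61.0% of mutant cells with an Aldh1a2 UMI and 49.5% of those without one held Aldh1a3. In the control cells of that cluster, 5 held both genes and 2 held Aldh1a2 without Aldh1a3.

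**Figure D1:**
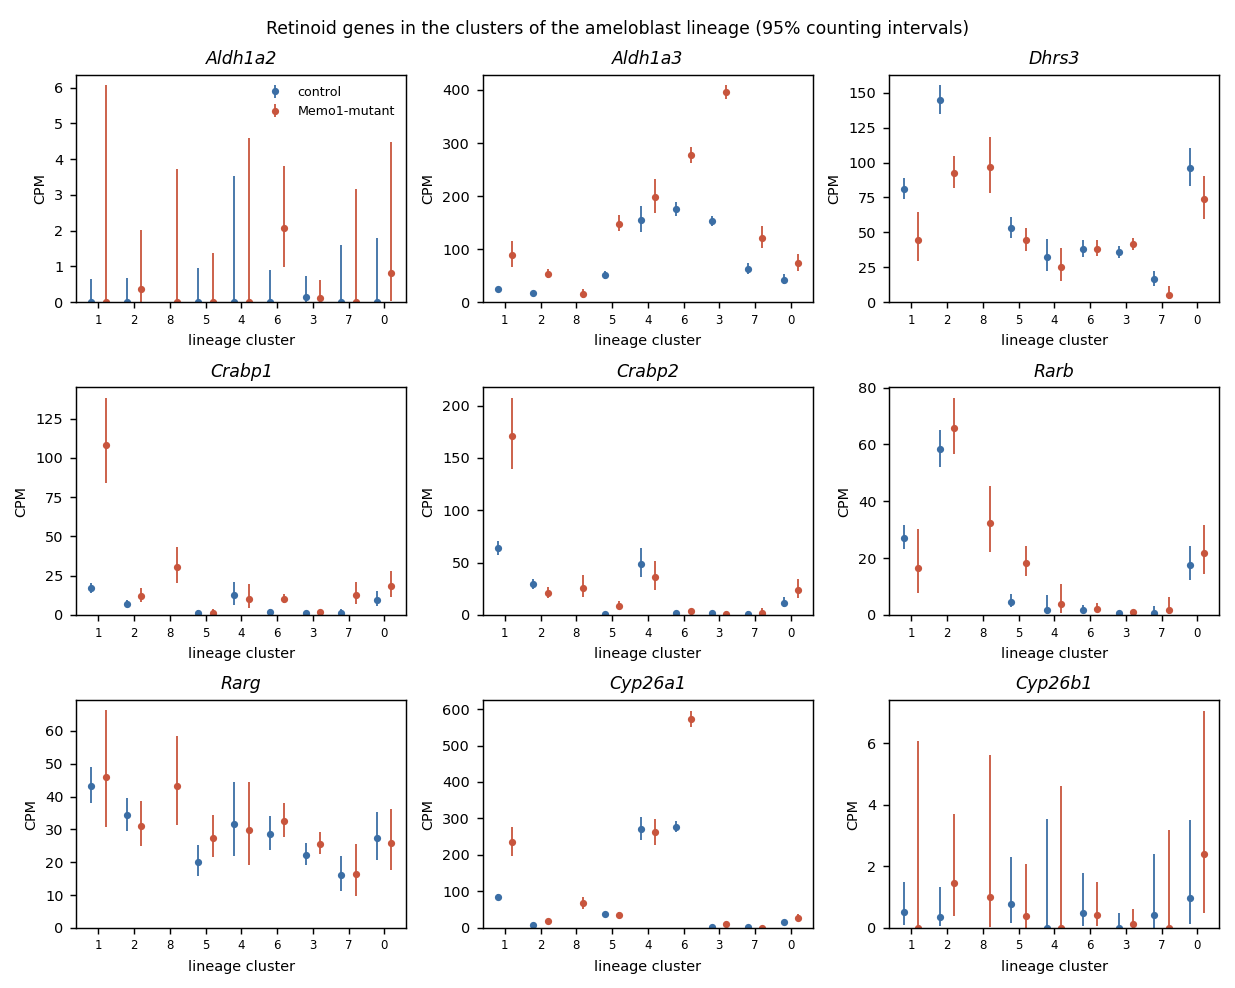
Level in CPM (y axis) of each of the 9 genes in the lineage clusters (x axis, in no order of development), with control in blue, mutant in red and bars for 95% counting intervals. Aldh1a3 was highest in cluster 6 of the control (175 CPM) and in cluster 3 of the mutant (396 CPM), and Cyp26a1 in cluster 6 of both (278 and 573 CPM).

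In the mesenchyme, Aldh1a3 was highest in all-cell cluster 13, an unnamed mesenchymal cluster led by Bmp3, Dkk2 and Ogn. There it stood at 595 CPM (574 to 616) in 224 control cells and 439 CPM (424 to 453) in 430 mutant cells, above every other mesenchymal cluster in both libraries with no overlap of intervals. The next levels in the control were 356 CPM in cluster 21, 297 CPM in the odontoblast- or osteoblast-like cluster 22 and 277 CPM in cluster 3, and the intervals of neighbours among them overlapped. A median control cell of cluster 13 held 9 Aldh1a3 UMIs and a median mutant cell 5, and the ratio of the sums was 0.737 (0.702 to 0.774). The mesenchymal cluster with the highest level of Aldh1a3 was thus lower in the mutant library, by less than the 2-fold limit.

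In the lineage the order was different. The control levels were 175 CPM (162 to 188) in cluster 6, 155 CPM (132 to 181) in preameloblast-like cluster 4 and 153 CPM (144 to 162) in secretory cluster 3, and neighbours in this order overlapped. The mutant levels were 396 CPM (383 to 409) in cluster 3, 277 CPM (262 to 292) in cluster 6 and 198 CPM (169 to 231) in cluster 4, with no overlap. Secretory ameloblast-like cells shared the upper levels in the control and held the top level in the mutant. Their ratio was 2.59 (2.43 to 2.77), from 1174 counts in 223 control cells and 3626 counts in 286 mutant cells. A UMI of Aldh1a3 was found in 81.6% of control and 95.8% of mutant cells, and the median cell held 2 and 8 UMIs at similar median depths of 35309 and 32701 UMIs.

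The ratio of Aldh1a3 had an interval wholly above 1 in 8 of 8 lineage clusters. Outside the lineage the interval lay above 1 in 6 of 18 clusters (1, 4, 7, 8, 10 and 23) and below 1 in 2 (11 and 13). The shares of all genes given above are for 2-fold calls. The share with an interval excluding 1 is not given, so nothing is read from these counts of clusters. Aldh1a3 was called higher in lineage cluster 1 (24.7 against 88.7 CPM, ratio 3.60), cluster 2 (17.0 against 53.3 CPM, ratio 3.14), cluster 5 (51.3 against 148 CPM, ratio 2.89) and cluster 3. Just under the limit stood maturation-like cluster 7, with 63.0 against 121 CPM and a ratio of 1.92 (1.52 to 2.44). The smallest difference in the lineage was in preameloblast-like cluster 4, with a ratio of 1.28 (1.02 to 1.60). Over the whole lineage the levels were 84.0 and 246 CPM (ratio 2.93, interval 2.80 to 3.07), beside a different makeup of the libraries, in which cluster 3 gave 223 of 2981 control and 286 of 2303 mutant lineage cells. The calls held under all 8 alternative settings in clusters 3 and 5 and in the whole lineage. In thinned cells, clusters 1 and 2 had too few counts to be measured, so their calls ended there, with ratios of 4.61 (1.19 to 16.0) and 8.05 (1.67 to 76.6).

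Genes of other cells were also higher in some of these clusters. In secretory cluster 3 the summed level of 7 macrophage markers was 69.4 CPM in control and 153 CPM in mutant cells, and 3 of 3 measured markers were called higher. Aldh1a3 stood at 15.8 and 24.3 CPM in macrophage-like all-cell cluster 4 itself. The 7 dental pulp markers summed to 5.47 and 16.6 CPM in cluster 3, with Barx1 at 0 in the control. In cluster 2, 3 of 3 measured macrophage markers and 3 of 3 measured erythroid markers were called higher, with sums of 67.0 and 169 CPM and of 433 and 2322 CPM. In cluster 5 the pulp markers summed to 17.0 and 53.6 CPM, with Lhx8 and Barx1 at 0 in both libraries. In cluster 1, 4 of 5 measured markers of other fibroblasts were called higher, with a sum of 205 and 393 CPM and Dpt and Pi16 at 0 in both. The part of these cell types in the Aldh1a3 results of clusters 1, 2, 3 and 5 was not tested.

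**Figure D2:**
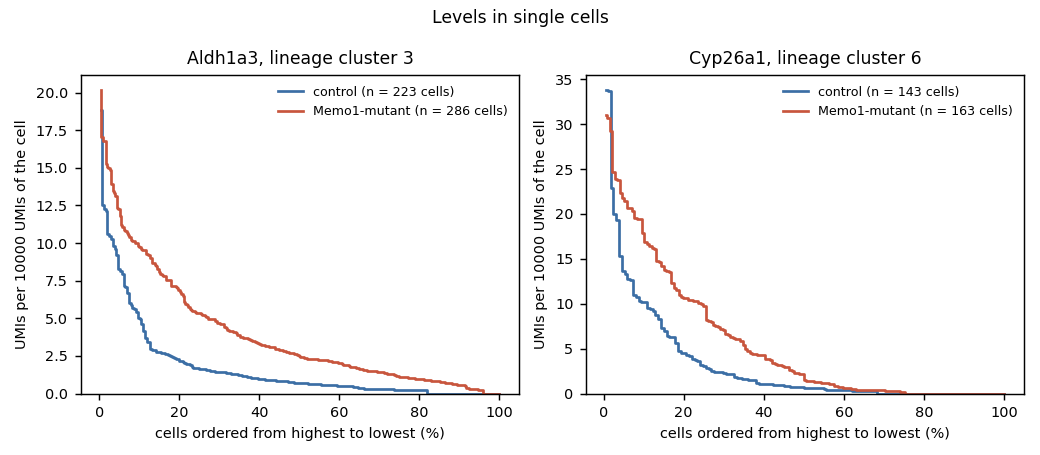
UMIs of the gene per 10000 UMIs of the cell (y axis) in cells ordered from highest to lowest (x axis, % of cells), for Aldh1a3 in lineage cluster 3 and Cyp26a1 in lineage cluster 6, with control in blue and mutant in red. The mutant line for Aldh1a3 lies above the control line over most cells (medians 2.46 and 0.714). For Cyp26a1 the medians are 1.56 and 0.661 and the upper quartile of the control is 2.96.

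Aldh1a2 in all-cell cluster 7 stood at 12.6 CPM (6.89 to 21.1) in 102 control cells and 69.1 CPM (63.6 to 74.9) in 770 mutant cells, a ratio of 5.48 (3.24 to 10.1). It was detected in 6.86% of control and 29.0% of mutant cells, which had nearly equal median depths of 10614 and 10435 UMIs. Without the cell with the most counts in each library the ratio was 8.29. Of the 10 genes that lead this cluster, 6 differed between libraries with an interval wholly beyond 2-fold. Among them were Sfrp2, a secreted Wnt modulator, at 3770 and 11325 CPM, and Tnn, a matrix protein, at 1540 and 451 CPM. The markers of pericytes and smooth muscle summed to 287 and 1621 CPM in control and mutant cells of the cluster, and 4 of 5 measured were called higher. The part of these differences in the Aldh1a2 result was not tested.

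Dhrs3 (chr4:144892827-144928209), which returns retinal to retinol, was highest in macrophage-like all-cell cluster 4, at 229 CPM (218 to 240) in the control and 228 CPM (220 to 236) in the mutant, with a UMI in 89.6% and 90.8% of cells. Background in erythroid cells was 5.62 and 4.05 CPM. Within the control lineage the order was cluster 2 with 145 CPM (135 to 155), then cluster 0 with 96.3 CPM and cluster 1 with 81.4 CPM, whose intervals overlapped. The mutant level in cluster 2 was 92.8 CPM (81.8 to 105), a ratio of 0.640 (0.554 to 0.738), and 83.2% of control but 63.7% of mutant cells held a UMI. The ameloblast-like clusters held less: 36.1 and 41.5 CPM in cluster 3, and 16.4 and 5.16 CPM in maturation-like cluster 7.

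The ratio of Dhrs3 was below 1 in most clusters, 6 of 8 in the lineage and 15 of 16 measured outside it. Its interval lay below 1 in 4 of 8 lineage clusters (0, 1, 2 and 7) and in 6 of 16 other clusters, and above 1 in none of these 24. As for Aldh1a3, the share of all genes with such intervals is not given, and nothing is read from these counts. In lineage cluster 7, 598 of 6432 measured genes (9.3%) were called lower. Dhrs3 was among them, 3.18-fold lower (1.33 to 9.20), with 38 control and 6 mutant counts. Its call ended with stricter cell limits (ratio 0.436, interval 0.145 to 1.10) and in thinned cells (0.839). Without the top cell of each library it had too few counts to be measured. Of the 8 maturation markers that name cluster 7, 7 were measured and all 7 were called lower in the mutant, with sums of 38687 and 6115 CPM, and their part in this call was not tested. Over the whole lineage Dhrs3 stood at 67.3 and 48.7 CPM (ratio 0.724, interval 0.674 to 0.778), beside a different makeup of the libraries. Cluster 1 gave 495 of 2981 control and 75 of 2303 mutant lineage cells, and cluster 2 gave 340 and 190. The part of this makeup in the ratio was not tested.

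Crabp1 and Crabp2 bind retinoic acid and pass it to enzymes or receptors. Crabp1 (chr9:54764748-54773110) lay mainly outside the lineage, with 5.22% of its control and 2.72% of its mutant counts inside it. It was highest in odontoblast- or osteoblast-like all-cell cluster 22, at 290 CPM (273 to 308) and 383 CPM (358 to 409), followed in the control by cluster 0, where it is a leading gene, with 242 CPM, and cycling cluster 11 with 214 CPM. Dental pulp-like clusters 5 and 6 had 143 and 184 CPM in the control and 225 and 198 CPM in the mutant. A median cell of cluster 22 held 5 and 6 UMIs of Crabp1.

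In fibroblast-like all-cell cluster 7, where Aldh1a2 lay, Crabp1 stood at 35.1 CPM in control and 176 CPM in mutant cells, a ratio of 5.03 (3.66 to 7.10) that was called under all 8 alternatives. Both genes were found together in 1 of 102 control and 134 of 770 mutant cells. In the mutant, 60.1% of the cells with an Aldh1a2 UMI and 40.2% of those without one held Crabp1, at median depths of 10739 and 10301 UMIs. The control shares were 14.3% and 23.2%, but few control cells held Aldh1a2: 1 with Crabp1 and 6 without. The differences in the leading genes and pericyte markers of this cluster stand beside this result too, and their part in it was not tested.

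In the lineage, Crabp1 was measured in 3 of 8 clusters and called in cluster 1, at 17.0 CPM in 495 control cells and 108 CPM in 75 mutant cells (ratio 6.39, interval 4.61 to 8.82). The ratio was 2.68 (0.622 to 9.04) when cells were thinned to 1000 UMIs, which leaves few counts, and 4.20 as a mean over cells. The fibroblast markers of cluster 1 given beside Aldh1a3 stand beside this ratio too. So do its leading genes H19, Atf3 and Crabp2, which differed between libraries with intervals wholly beyond 2-fold. Crabp1 was at 35.1 CPM or more in the fibroblast-like and pulp-like clusters. The part of these markers and leading genes in the ratio was not tested. Erythroid background for Crabp1 was 4.01 and 2.89 CPM, and its levels of 1.43 and 2.18 CPM in secretory cluster 3 were below it.

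Crabp2 (chr3:87948666-87953376) was highest in the same Bmp3- and Ogn-led cluster 13 as Aldh1a3, at 207 CPM (194 to 219) in the control and 140 CPM (132 to 149) in the mutant, a ratio of 0.679 (0.624 to 0.739). Pulp-like cluster 6 came next, at 98.7 and 122 CPM, with no overlap with cluster 13 in either library. In cluster 13, 179 of 224 control and 298 of 430 mutant cells held UMIs of both Crabp2 and Aldh1a3. Within the lineage Crabp2 was highest in cluster 1, where it is a leading gene, at 63.6 CPM (57.3 to 70.4) and 171 CPM (140 to 207), and preameloblast-like cluster 4 had 48.9 CPM (36.4 to 64.2) and 36.1 CPM (24.2 to 51.9), an interval that overlaps that of cluster 1 in control but not in mutant cells. The ratio of 2.69 in cluster 1 dropped to 1.15 in thinned cells and 1.55 as a mean over cells, which ended the call. The fibroblast markers of cluster 1 stand beside this ratio too, and their part in it was not tested. A call in cluster 0 (11.7 against 24.1 CPM, ratio 2.07) ended under 5 of 8 alternatives, beside macrophage markers of 457 and 913 CPM and erythroid markers of 7427 and 2797 CPM in sum, whose part was not tested. One in pulp-like all-cell cluster 5 (18.5 against 43.2 CPM, ratio 2.33) turned to 0.776 in thinned cells.

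**Figure D3:**
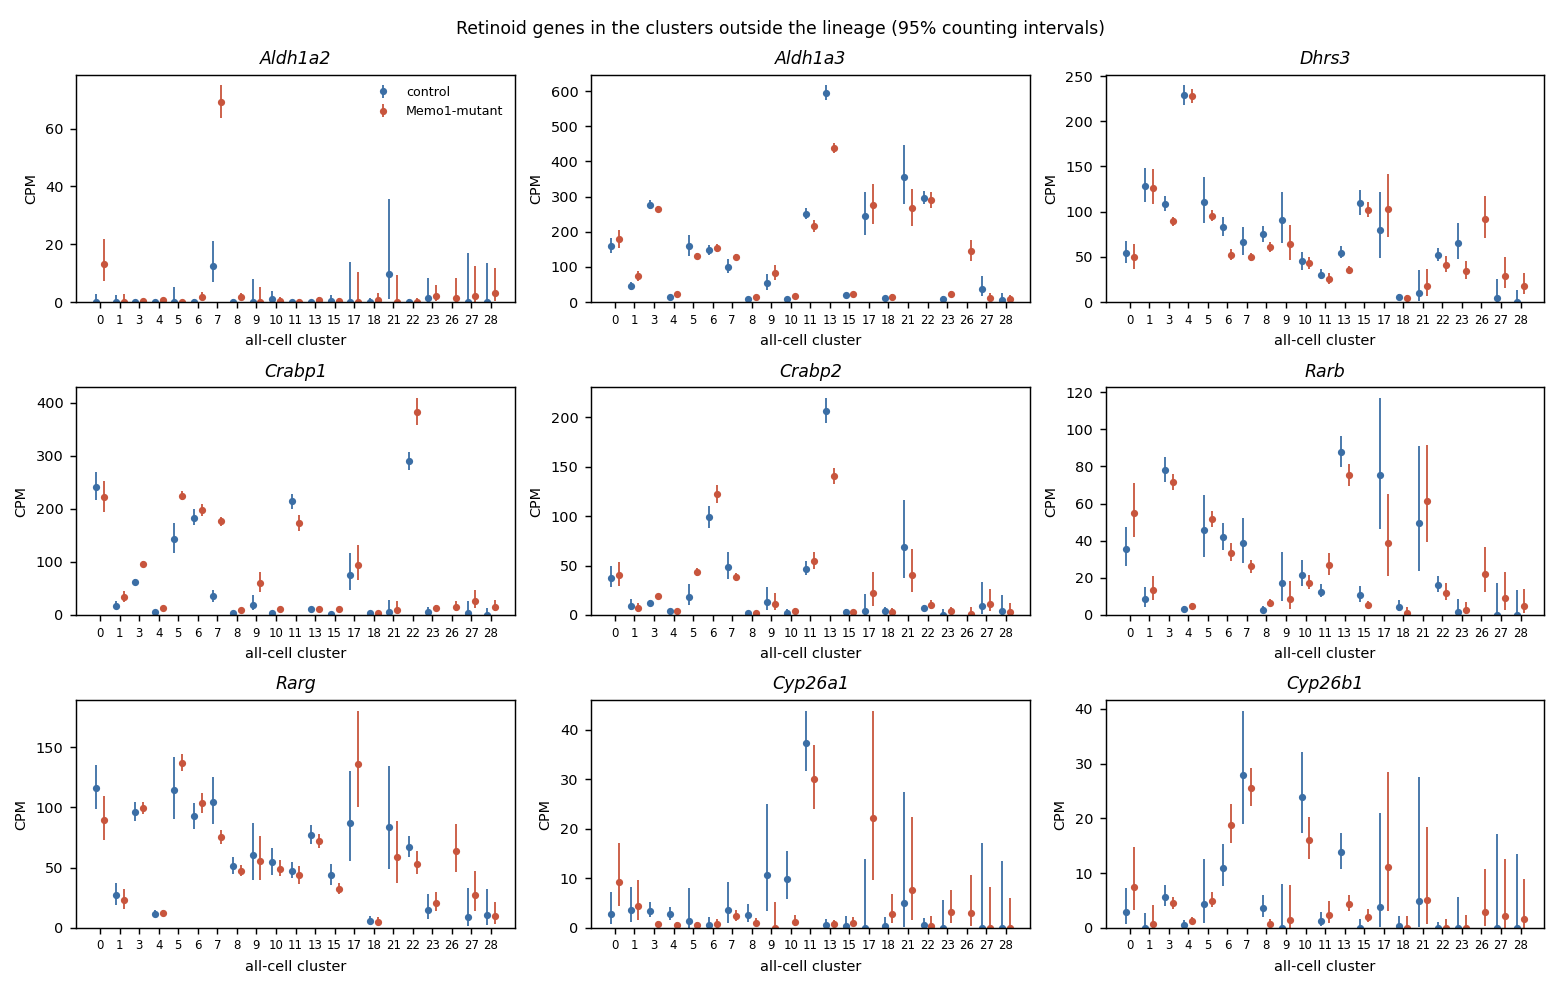
Level in CPM (y axis) of the 9 genes in the all-cell clusters outside the lineage (x axis), with control in blue, mutant in red and bars for 95% counting intervals, and with libraries of under 20 cells in a cluster left out. Aldh1a3 and Crabp2 peak in cluster 13 (595 and 207 CPM in the control), Crabp1 in cluster 22 (290 CPM) and Dhrs3 in cluster 4 (229 CPM), while Aldh1a2 stands out in cluster 7 of the mutant (69.1 CPM).

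The receptors Rarb and Rarg had different spreads. Rarb (chr14:16430839-16819156) was highest in cluster 13 at 87.8 CPM (79.9 to 96.4) in the control and 75.3 CPM (69.5 to 81.5) in the mutant, and the interval of all-cell cluster 3 (78.1 and 71.5 CPM) overlapped with it in both libraries. In the lineage it marked cluster 2, at 58.4 CPM (52.2 to 65.2) and 66.0 CPM (56.7 to 76.3), with a UMI in 52.1% of cells of both libraries. Clusters 3, 4, 6 and 7 of the lineage were too low to be measured, with at most 3.74 CPM, beside an erythroid background of 4.41 and 1.16 CPM in control and mutant. Cells of the stratum intermedium-like cluster 5 had 4.71 CPM (18 counts) in the control, close to that background, and 18.4 CPM (49 counts) in the mutant, with a ratio of 3.90 (2.23 to 7.11). In thinned cells that ratio was 2.43 with an interval from 0.126 to 143. The pulp markers of cluster 5, 17.0 and 53.6 CPM in sum, stand beside this ratio, and Rarb was at 45.6 and 51.7 CPM in pulp-like all-cell cluster 5. Their part in it was not tested.

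Rarg (chr15:102234938-102257517) was measured in 8 of 8 lineage clusters and 17 of 18 others and was called in 0 of these 25. Control levels in the lineage ran from 16.0 CPM in maturation-like cluster 7 to 43.4 CPM in cluster 1, and its ratios there from 0.908 to 1.36. Over the whole lineage it stood at 28.8 CPM in both libraries (ratio 0.998, interval 0.903 to 1.10). Outside the lineage the highest levels were 116 CPM in all-cell cluster 0, 114 CPM in cluster 5 and 104 CPM in cluster 7 of the control, which overlapped.

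Cyp26a1 (chr19:37697798-37701536) and Cyp26b1 (chr6:84571414-84593908) break retinoic acid down. Cyp26a1 belonged to the lineage, which held 89.5% of its control and 94.4% of its mutant counts. The control levels in cluster 6, 278 CPM (262 to 294), and preameloblast-like cluster 4, 271 CPM (240 to 305), overlapped, and cluster 1 followed at 85.3 CPM. In the mutant cluster 6 stood alone at 573 CPM (552 to 594), and cluster 4 at 262 CPM (228 to 300) overlapped with cluster 1 at 235 CPM (198 to 277). Secretory cluster 3 had 3.64 and 10.8 CPM. Maturation-like cluster 7 had 6 control counts and 0 mutant counts, where a floor of 3 counts equals 2.58 CPM in the mutant. In both libraries the gene was thus high in the preameloblast-like and Dspp-led clusters and low in the secretory and maturation-like ones. The erythroid background was a UMI in 0.386% of control and 0.581% of mutant cells.

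The ratio of Cyp26a1 in cluster 6 was 2.06 (1.92 to 2.21), from 1129 counts in 143 control cells and 2771 counts in 163 mutant cells. A UMI was found in 67.8% and 74.8% of cells and the median cell held 2 and 4 UMIs. In all-cell cluster 25, the greater part of cluster 6, the levels were 425 and 902 CPM. In cluster 4 the ratio was 0.966 (0.804 to 1.16). The median gene measured in cluster 6 had a log2 ratio of 0.18, and TMM and median-of-ratios scaling lowered the Cyp26a1 ratio to 1.75 (TMM interval 1.64 to 1.88), and the 2-fold call ended under 5 of 8 alternatives with ratios still above 1. Beside it, 3 of 3 measured fibroblast markers were called higher in cluster 6, with sums of 28.3 and 418 CPM in control and mutant, and the pulp markers summed to 19.9 and 101 CPM. Cyp26a1 stood at 3.60 and 2.38 CPM in fibroblast-like all-cell cluster 7 and at 0.629 and 0.678 CPM in pulp-like all-cell cluster 6. Erythroid markers in lineage cluster 6 summed to 1010.3 and 97.5 CPM. Dspp, the gene that leads the cluster, stood at 224 and 515 CPM there (ratio 2.29, interval 2.12 to 2.48). The part of these markers' cells and of the Dspp difference in the Cyp26a1 result was not tested.

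Cyp26a1 was also called higher in cluster 1 (85.3 against 235 CPM, ratio 2.75) and cluster 2 (8.95 against 19.6 CPM, ratio 2.19). The 91 mutant-only cells of lineage cluster 8, in the same all-cell cluster 12 as most of cluster 1, are not in these ratios. All-cell cluster 12 as a whole held 20.9% of 2418 control and 6.25% of 3679 mutant counts of Cyp26a1. It had 5893969 control and 1781787 mutant UMIs, against 5835248 and 608622 in lineage cluster 1. The ratio in lineage cluster 1 thus does not describe all-cell cluster 12 as a whole. As a mean over cells the ratio in cluster 1 was 1.64, and with TMM scaling that in cluster 2 was 1.90, both under the limit. In stratum intermedium-like cluster 5 the ratio was 0.972 (0.741 to 1.27). Over the whole lineage the levels were 67.0 and 143 CPM (ratio 2.14), or a ratio of 1.37 as a mean over cells. Cluster 6 gave 143 of 2981 control and 163 of 2303 mutant lineage cells, and the part of this makeup was not tested.

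Cyp26b1 had 262 control and 631 mutant counts and was nearly absent from the lineage, with 13 and 12 counts there. Its highest levels were 27.9 CPM (19.0 to 39.6) and 25.6 CPM (22.3 to 29.2) in fibroblast-like all-cell cluster 7. Pericyte-like cluster 10 had 23.9 and 16.1 CPM and pulp-like cluster 6 had 11.0 and 18.8 CPM, and the interval of cluster 7 overlapped with that of cluster 10 in the control and of cluster 6 in the mutant. It was measured in 3 of 18 clusters outside the lineage and called in 0. Most counts of Cyp26a1 thus lay in epithelium and most counts of Cyp26b1 outside it.

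In lineage cluster 6, Aldh1a3 and Cyp26a1, which make and clear retinoic acid, were both detected in 70 of 143 control and 106 of 163 mutant cells. Of control cells with a Cyp26a1 UMI, 72.2% held Aldh1a3, and of those without one, 71.7%. The mutant shares were 86.9% and 92.7%. In lineage cluster 1 of the mutant, 72.0% of 25 cells with Cyp26a1 and 18.0% of those without held Crabp2, but their median depths were 10571 and 2201 UMIs. The control shares in that cluster were 46.8% and 25.4%, at median depths of 10317 and 9850 UMIs.

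**Figure D4:**
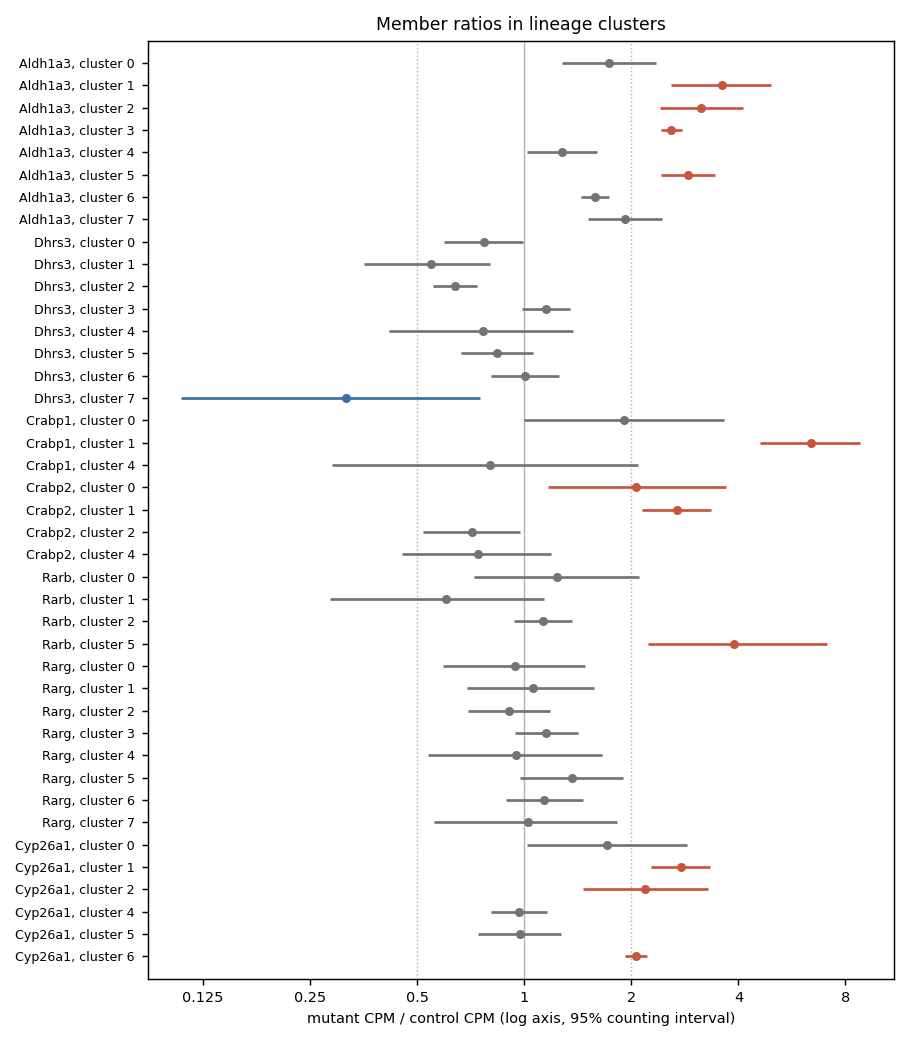
Ratio of mutant to control CPM (log x axis) for every member measured in a lineage cluster (y axis), with bars for 95% counting intervals, called ratios in red (higher) or blue (lower) and dotted lines at 2-fold. All 8 Aldh1a3 intervals lie above 1 and all 8 Rarg intervals cross 1, while Crabp1 in cluster 1 reaches 6.39. The share of all genes with an interval excluding 1 is not given.

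The called values outside the lineage not yet described were Aldh1a3 in pericyte-like cluster 10 (8.15 against 18.6 CPM) and in cluster 23 (7.58 against 22.3 CPM), Crabp1 in endothelium-like cluster 9 (19.4 against 59.9 CPM) and Rarb in cycling cluster 11 (12.6 against 27.0 CPM). All 4 ended under 2 to 4 alternatives, and all but the first turned below 1 in thinned cells. Both control levels of Aldh1a3 lie under its erythroid background of 12.8 CPM, and both mutant levels lie above that of mutant erythroid cells, 15.6 CPM. These are point values whose intervals were not compared. Median depths of mutant cells were 7316 UMIs in cluster 10, 6619.5 in cluster 23 and 11224.5 in the erythroid cluster.

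Other genes of the pathway were taken from a list of 48, of which 44 were in the table. In the lineage 10 of 128 measured values were called higher and 2 lower, and outside it 14 of 308 were called higher and 5 lower, beside the background shares given above. In secretory cluster 3, Fabp5, a carrier that can pass retinoic acid to other receptors, was the called gene, at 24.3 and 87.9 CPM (ratio 3.61, interval 3.08 to 4.26). Fabp5 was also called in cluster 6, at 112 and 225 CPM. Rarres2, which encodes the secreted protein chemerin, was called higher in clusters 0, 1, 2 and 6, with 3.44 and 19.6 CPM in cluster 6. Outside the lineage Rarres2 was also called higher, in all-cell clusters 0, 1, 11 and 23. The markers of other cells given for lineage clusters 1, 2, 3 and 6 stand beside these Fabp5 and Rarres2 calls too, and their part was not tested.

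The 2 lower calls in the lineage were Dgat1, an enzyme that esterifies fats and retinol, in cluster 0 (50.6 against 14.5 CPM, ratio 0.286) and Ncoa2, a receptor coactivator, in cluster 1 (35.5 against 16.4 CPM, ratio 0.463). The markers of macrophages and erythroid cells given for cluster 0 stand beside its calls too, and their part was not tested. Ttr, which carries the retinol-binding protein in blood, was called higher in cluster 0 (9.24 against 33.8 CPM). The median log2 ratio of the list's measured genes was 0.26 in cluster 3 beside 0.12 for all genes, 0.49 beside 0.18 in cluster 6, and 0.26 beside 0.22 in cluster 5. It was 0.02 beside 0.04 in cluster 0, 0.12 beside 0.07 in cluster 1, 0.19 beside 0.15 in cluster 2, 0.03 beside -0.09 in cluster 4, 0.27 beside -0.04 in cluster 7 and -0.11 beside -0.04 over the whole lineage. For the members themselves, in clusters 0 to 7 in turn, it was 0.77, 1.43, 0.02, 0.21, -0.20, 0.44, 0.42 and 0.03, and over the whole lineage -0.17, so it lay below that of all genes in clusters 2 and 4 and over the whole lineage.

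**Figure D5:**
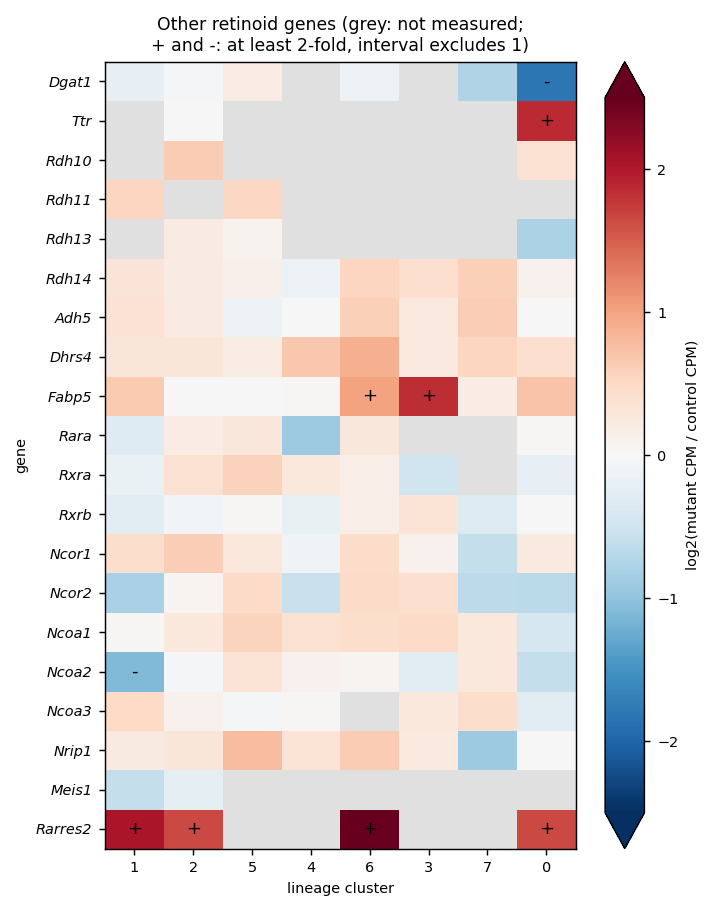
log2 ratio of mutant to control CPM (colour, red for higher and blue for lower) for 20 of the listed pathway genes (y axis) in the 8 lineage clusters with both libraries (x axis), with grey for genes not measured and signs for called genes. Fabp5 is called higher in clusters 3 and 6 (ratios 3.61 and 2.01), and no gene plotted for preameloblast-like cluster 4 is called.

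Rdh10, which oxidises retinol to the retinal that Aldh1a enzymes use, was highest in pulp-like all-cell cluster 5, at 287 CPM (248 to 329) and 272 CPM (262 to 282). Cyp26c1, the third breakdown enzyme, had 10 control counts and 1 mutant count in preameloblast-like cluster 4 and 29 and 8 counts in cluster 1. Rara, the third receptor, stood at 65.2 and 79.5 CPM in stratum intermedium-like cluster 5. Aldh1a1 was at 34.5 and 29.5 CPM in the erythroid cluster.

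Over the 26 all-cell clusters with at least 50 cells in each library, genes whose control levels ran most like a member's were found by Pearson's r on log2(CPM + 10). These are descriptions, since clusters of 1 library share depth and free RNA. For Cyp26a1 they were Casz1 (r = 0.871 in the control, 0.815 in the mutant), Shh (0.852 and 0.841), a signal of the enamel epithelium, and Wfdc2 (0.816 and 0.611). For Aldh1a3 they included the Wnt inhibitor Wif1 (0.864 and 0.853) and Fkbp14, and for Crabp1 the mesenchymal transcription factor Twist2 (0.932 and 0.863), Galm and Plppr1. For Crabp2 they were Bcl11b (0.889 and 0.849), a transcription factor, Tpbg and Spock1. Rarb ran with Angptl4 (0.909 and 0.851), Igsf3 and Islr, Rarg with Cdc42ep5 (0.905 and 0.900), Cul7 and Dap, and Dhrs3 with Rbfa (0.860 and 0.819) and Cmtm6. Between members the r of Rarb and Rarg was 0.782 in the control and 0.722 in the mutant. That of Crabp1 and Rarg was 0.650 and 0.682, that of Crabp2 and Rarb 0.616 and 0.756, and that of Aldh1a3 and Cyp26a1 0.117 and 0.269.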

How the data were processed

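Single-cell RNA sequencing (10x Genomics 3' end) was done on 1 control and 1 Memo1;K14CRE mouse. The deposited values are UMI counts per gene and cell, made by the authors with Cell Ranger (version not given in the sources used here), mm10 and Seurat 3, per the submitters' processing notes. The deposited cells hold 501 to 49967 UMIs and at least 200 genes, 28.8% of control and 21.7% of mutant cells lie under 1000 UMIs, and 139 barcodes occur in both libraries. Cluster numbers are the authors' deposited annotation, and doublets were not called.

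Counts were summed per cluster and library and divided by the cluster total. Levels have exact Poisson, shares Clopper-Pearson and ratios exact conditional intervals at 95%. Clusters with at least 50 cells in each library were compared, 8 of the lineage and 18 others. The design allows no p-value. A name needed 3 or more of its markers 1.5-fold over the remaining clusters, with a mean log2 ratio of at least 1. The members, lists and limits were chosen with earlier results of these data known. Named besides all members were, of the pathway list, up to 4 called genes per cluster described and those highest in their group, the 3 genes most like each member with at least 50 CPM, and marker genes. Genes leading a cluster and the sets shown as values were picked after their values were seen. The library of each cell is in the deposited metadata.

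Alternatives were TMM (edgeR 4.0.16) and median-of-ratios (DESeq2 1.42.0) scaling, totals without the 20 most abundant genes, stricter cell limits (1000 UMIs, 500 genes, 10% mitochondrial), leaving out the deepest 5% of cells or, per gene, the top cell, thinning to 1000 UMIs, means of per-cell CPM, no filter and a 1.5-fold limit. The intervals were tested on data simulated with counting error alone, the error they assume. That test cannot speak for spread between cells or mice. Gene positions are from GENCODE M21 (GRCm38) and start windows from RefSeq (GRCm38.p6). Python 3.11.15, numpy 2.4.6, pandas 2.3.3, scipy 1.17.1, matplotlib 3.10.9 and R 4.3.3 were used. A few named genes that these rules select are not reported here.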

Additional observations from a re-analysis of the deposited data

Results flagged for a closer look

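For 4 members the ratio of mutant to control lay wholly above 1 and at least 2-fold in one cluster and wholly below 1 in another, and the difference between the clusters was not tested, since each genotype has 1 library. Aldh1a3 had 3.60 (2.58 to 4.95) in lineage cluster 1 and 0.737 (0.702 to 0.774) in all-cell cluster 13. Crabp1 had 6.39 (4.61 to 8.82) in lineage cluster 1 and 0.807 (0.722 to 0.900) in cycling all-cell cluster 11. Crabp2 had 2.69 (2.14 to 3.35) in lineage cluster 1 and 0.679 (0.624 to 0.739) in all-cell cluster 13. Rarb had 3.90 (2.23 to 7.11) in lineage cluster 5 and 0.676 (0.486 to 0.960) in all-cell cluster 7. The mutant library has 75 cells in lineage cluster 1. A further 91 mutant cells, those of lineage cluster 8, lay in the same all-cell cluster 12 as most of lineage cluster 1.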

How the results depend on the processing

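No paired analysis was possible because each genotype has 1 library. Of 21 called member ratios, whole lineage included, 5 stayed called under every setting tried and 16 lost the call under at least 1, 2 of them (Aldh1a3 in lineage clusters 1 and 2) only because thinning left too few counts. Thinning cells to 1000 UMIs leaves few counts, and for the other alternatives the cause was not tested. In thinned cells, Crabp2 in all-cell cluster 5 (0.776), Crabp1 in 9 (0.874), Rarb in 11 (0.998) and Aldh1a3 in 23 (0.618) turned below 1, as did Rarb in cluster 11 as a mean of per-cell CPM (0.899). The 11 member values called higher in the lineage became 3 in thinned cells and 7 without lineage cluster 1, an alternative chosen after seeing the data, and the 7 called higher elsewhere became 4 without the deepest 5% of cells, 3 in thinned cells, 3 as a mean per cell, 17 with no filter and 16 at 1.5-fold. The 1 called lower in the lineage became 2 without the deepest cells, 0 in thinned cells, 3 as a mean per cell, 2 without the top cell, 2 with no filter and 3 at 1.5-fold, and the 0 elsewhere became 1 with TMM, 1 with median-of-ratios, 1 without the deepest cells, 1 as a mean per cell, 6 with no filter and 3 at 1.5-fold. Pathway genes called higher in the lineage, 10, became 5 in thinned cells, 18 with no filter and 20 at 1.5-fold, and the 14 elsewhere became 9 without the deepest cells, 27 with no filter and 26 at 1.5-fold. Those called lower, 2 in the lineage, became 4 with stricter cell limits, 1 without the deepest cells, 1 in thinned cells, 5 as a mean per cell, 8 with no filter and 7 at 1.5-fold, and the 5 elsewhere became 8 with stricter limits, 11 as a mean per cell, 13 with no filter and 17 at 1.5-fold.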
